A study of Homo sapiens with 14 samples.

Results

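The genes described here are 7 caspases (CASP1, CASP2, CASP4, CASP6, CASP8, CASP9 and CASP10) and CFLAR, the caspase-like regulator of CASP8. They were taken by gene name from a count table of HT-29 cells, and these 8 genes are 8 of the 36555 in the table. HT-29 is a human colorectal carcinoma line, here wild type. RNA from 6 treatments was sequenced after poly(A) selection: TNF with 20 uM liproxstatin-1 (2 libraries), TNF with 20 uM ferrostatin-1 (3 libraries), TNF alone (2 libraries), 20 uM liproxstatin-1 alone (2 libraries), 20 uM ferrostatin-1 alone (2 libraries) and control cells in 0.1% DMSO (3 libraries). TNF is labelled at 100 ug/ml, and treatment lasted 72 h, a time that the labels give for all but the control. Liproxstatin-1 and ferrostatin-1 are radical-trapping inhibitors of ferroptosis, and the study set them side by side because they acted differently on cells dying by TNF-driven apoptosis. The labels call the replicates technical, so p-values here measure only the spread between these libraries.

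Caspases are cysteine proteases that are made as inactive proenzymes. In apoptosis, initiator caspases (CASP8 and CASP10 at death receptors, CASP9 on the mitochondrial apoptosome, CASP2 on the PIDDosome) are brought together by adaptor proteins and then activate executioner caspases, among which CASP6 cleaves nuclear lamins. CFLAR, also called c-FLIP, resembles CASP8 but lacks its catalytic activity, and it is recruited beside CASP8 and sets whether CASP8 is activated. CASP1 and CASP4 belong to the inflammatory branch, in which they cleave gasdermin D, and CASP1 also matures the interleukins IL1B and IL18. Because caspase activity is set by cleavage of the protein, an RNA level is a measure of supply and not of activity.

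CFLAR, CASP10 and CASP8 lie in a row on chromosome 2. Promoter windows of CFLAR and CASP8 are shown because they are the only member windows in which a searched motif was found. The search covered the IRF element, the interferon gamma activated site (TTCNNNGAA) and the kappaB consensus, each on both strands. RefSeq gives a promoter window on GRCh38.p14, from 250 bases before to 50 bases after a gene start, for 6 of the 8 members (13 windows). CASP1 and CASP10 had no window and were not searched. A match to at least 1 of these motifs was found in 2 of the 13. Among all 35114 windows of the table, 3.57% held the IRF element, 7.66% the activated site and 5.91% the kappaB consensus. The share of all windows with at least 1 of these motifs was not counted, so no result about the members is read from the 2 of 13. Capitals mark the matches, and both sequences are read 5′ to 3′ on the plus strand.
CFLAR, chr2:201118466-201118715: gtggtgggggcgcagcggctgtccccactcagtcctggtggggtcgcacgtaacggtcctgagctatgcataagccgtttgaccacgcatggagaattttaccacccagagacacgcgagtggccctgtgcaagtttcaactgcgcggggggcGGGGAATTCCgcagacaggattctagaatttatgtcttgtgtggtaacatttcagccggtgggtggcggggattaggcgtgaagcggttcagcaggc
CASP8, chr2:201233213-201233469: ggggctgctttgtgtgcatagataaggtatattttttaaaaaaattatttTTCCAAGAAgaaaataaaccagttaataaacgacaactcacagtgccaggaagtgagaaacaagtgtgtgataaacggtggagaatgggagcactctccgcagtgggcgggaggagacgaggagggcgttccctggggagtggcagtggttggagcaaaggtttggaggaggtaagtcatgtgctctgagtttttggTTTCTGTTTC
In the CFLAR window the capitals are a kappaB match that begins 97 bases before the RefSeq start of that window. This start lies 2562 bases inside CFLAR as the deposited table places the gene, and it is 1 of 4 CFLAR windows, of which the others held no match. In the CASP8 window, 1 of 3 and the only one with a match, the first match is the activated site, 200 bases before its RefSeq start, and the second is the IRF element on the minus strand, which begins 3 bases before it. This start lies 20 bases inside CASP8 in the deposited table. A match is only a run of letters, and no binding was measured here.

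The libraries held 59913850 to 75838597 counts each, and all 8 members passed the filter on low counts that left 22179 genes. Each member was counted at least 185 times in every library. The 2 TNF libraries, numbered 1 and 3 in the count columns, differed more from each other than any other pair of a group (203.4 in a chi-square of their counts divided by its degrees of freedom, where other pairs gave 14.9 to 74.3), so values with the TNF group are also given without each of them where that matters. All 9 colon epithelium markers were counted, and their sum spanned 8879 to 13199 in normalized CPM (counts scaled to library depth) with TNF and 10155 to 11735 without it. Most of this sum is KRT8 and KRT18. Single markers stood lower with TNF, CDH1 at 306 to 382 with TNF and 498 to 670 without, VIL1 at 96.1 to 141 with TNF and 159 to 189 without, and LGALS4 at 151 to 234 with TNF and 447 to 733 without. The ranges of EPCAM, KRT8, KRT18, KRT20, CDX2 and CEACAM5 with and without TNF overlapped. Of 8 leukocyte markers 7 are in the table, and their sum, most of it LYZ, spanned 801 to 1172 with TNF and 833 to 1118 without. The pan-leukocyte marker PTPRC was at 0 in every TNF-treated library, whereas ITGAM stood at 17.0 to 23.2 with TNF and 0.210 to 0.552 without, and LAPTM5 at 5.92 to 11.5 with TNF and 0.119 to 1.10 without. All 4 fibroblast markers summed to 2.25 to 34.1 with TNF and 2.43 to 13.2 without, and all 3 endothelial markers to 2.64 to 44.4 with TNF and 0.846 to 36.1 without. KRT81, a gene outside these lists, stood at 43.7 to 50.4 CPM in the control and TNF libraries. With an inhibitor it stood at 1.05 to 13.997 CPM, except in ferrostatin-1 library 1, at 57.1 CPM. Ferrostatin-1 library 3 had 1.45 CPM, so KRT81 also parted the ferrostatin-1 pair. The part of these markers and of KRT81 in the results was not tested.

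Compared per length, in the FPKM (fragments by gene length and library depth) that the authors deposited, the control cells held most of CASP4 (11.8 ± 0.965 FPKM, SD, n = 3), CASP6 (10.9 ± 1.01) and CASP2 (10.7 ± 0.886), whose spreads overlap. CASP8 followed at 8.05 ± 0.343 FPKM. CFLAR stood at 2.86 ± 0.0343, CASP9 at 2.61 ± 0.164, CASP10 at 1.85 ± 0.182 and CASP1 at 1.01 ± 0.320 FPKM. Below, levels are normalized CPM (with TMM scaling), which compare 1 gene between libraries. CASP5 and CASP14, caspases outside the 8 members, had 0 counts in all 14 libraries.

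**Figure D1:**
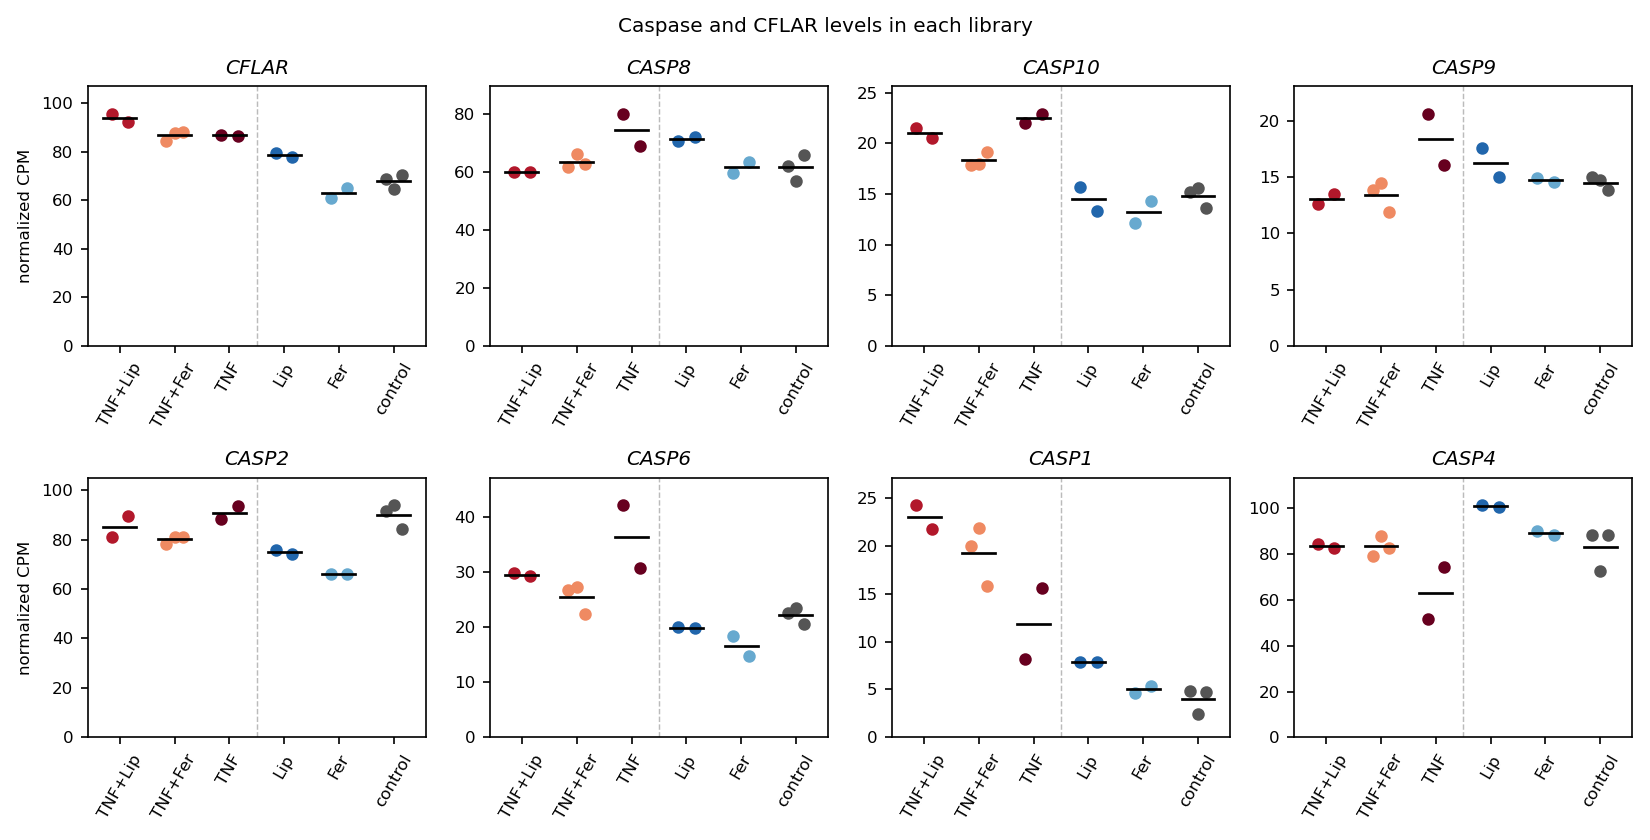
Level of each member in normalized CPM (y axis, starting at 0) in each of the 14 libraries (points), with group means (bars). Groups run along the x axis, with Lip for liproxstatin-1 and Fer for ferrostatin-1, and the dashed line parts the TNF-treated groups from the others. For CASP1, CASP10 and CFLAR all points left of the line lie above all points right of it.

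TNF raised 4 of the 8 members against control, namely CASP1, CASP6, CASP10 and CFLAR, and lowered none. Called here means an adjusted p under 0.05 by edgeR's quasi-likelihood test with Benjamini-Hochberg adjustment over all 22179 genes, of which 14.7% were called in this comparison (8.24% higher and 6.44% lower). The same contrast was made within each inhibitor, and the 3 contrasts were also averaged. Within ferrostatin-1, 5 members rose and none fell, where 18.1% of all genes were called (8.76% higher and 9.36% lower). Within liproxstatin-1, 3 rose and none fell, where 14.6% were called (7.57% higher and 7.03% lower). In the mean of the 3 contrasts, 5 members rose and 1 fell, where 33.9% of all genes were called (17.6% higher and 16.2% lower). The median log2 fold change of the 8 members in that mean was 0.26, against 0.01 over all genes tested. All 11 of a list of TNF-responsive genes rose in TNF against control, with TNFAIP3 at a log2 fold change of 4.18 ± 0.12 (SE). This list was chosen with earlier results of these data known, so it is not an independent check of the labels. In bulk RNA, a smaller share of some cells and less RNA per cell cannot be told apart.

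**Figure D2:**
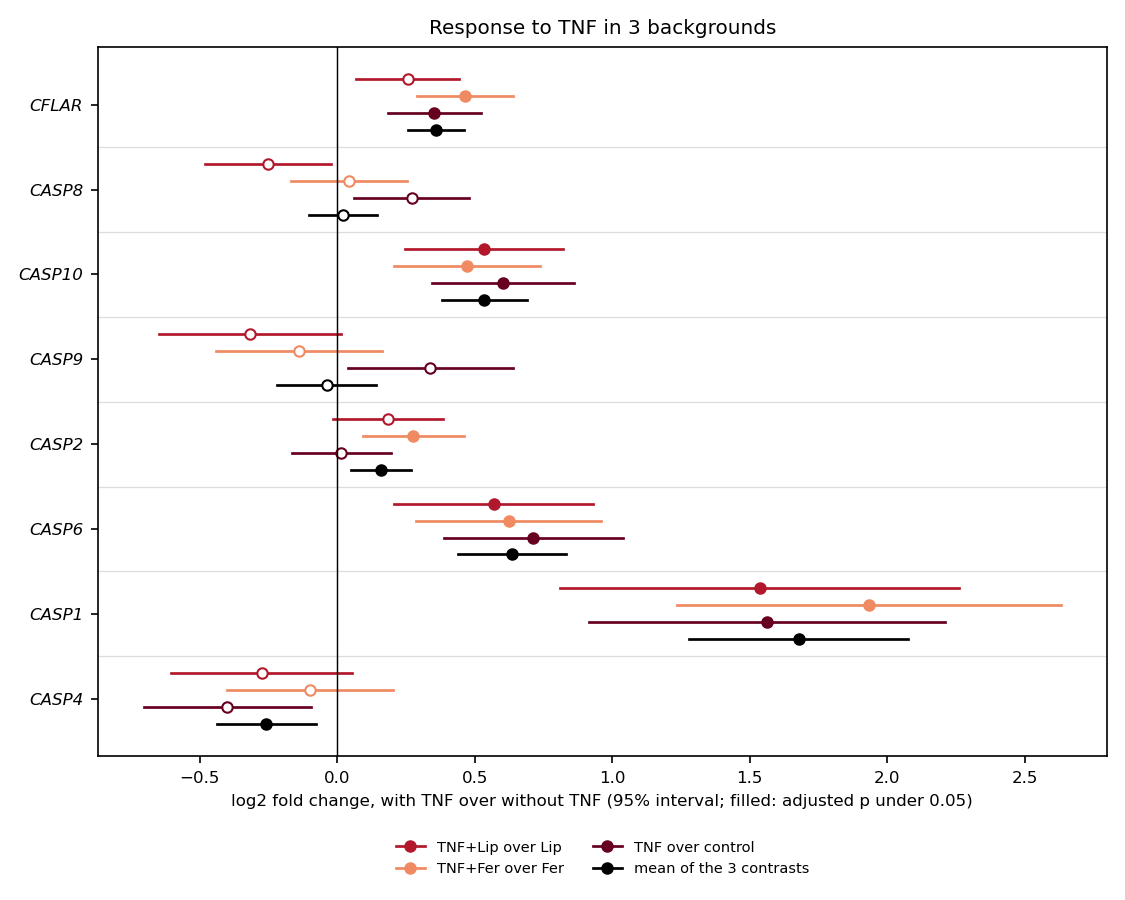
Log2 fold change with TNF over without TNF (x axis) for each member, with 95% intervals, in cells with liproxstatin-1, with ferrostatin-1 and with neither, and for the mean of the 3 contrasts. Filled points passed an adjusted p of 0.05. The intervals of CASP1, CASP6, CASP10 and CFLAR lie above 0 in every contrast. Those of CASP8 and CASP9 lie above 0 in TNF over control, whereas their values with liproxstatin-1 are below 0.

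At the death receptor, CFLAR rose with TNF and CASP8 was not called. CFLAR (ENSG00000003402, chromosome 2, 201116154 to 201176687, plus strand) had 95.6 and 92.1 CPM in TNF with liproxstatin-1, 84.5, 87.5 and 88.0 CPM in TNF with ferrostatin-1 and 87.1 and 86.3 CPM in TNF alone, against 79.5 and 77.6 CPM in liproxstatin-1, 60.8 and 64.9 CPM in ferrostatin-1 and 68.6, 64.7 and 70.3 CPM in control. All 7 TNF-treated libraries were above all 7 others. The log2 fold change was 0.35 ± 0.08 (SE) for TNF against control (adjusted p = 0.0115, a fold of 1.28), 0.46 ± 0.08 within ferrostatin-1 (adjusted p = 0.00189) and 0.26 ± 0.09 within liproxstatin-1 (adjusted p = 0.0675), which did not pass. Without TNF library 1 or TNF library 3 the value within liproxstatin-1 also passed, with the lowest adjusted p over left-out libraries at 0.0173. In the mean of the 3 contrasts CFLAR was 0.36 ± 0.05 higher (adjusted p = 1.15e-04). CFLAR-AS1, an antisense gene inside CFLAR, had 35 counts at most in a library, against 4346 to 6769 for CFLAR, and the labels do not say if strand was used in counting.

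CASP8 (ENSG00000064012, chromosome 2, 201233443 to 201287711, plus strand) had 60.0 and 59.9 CPM in TNF with liproxstatin-1, 61.7, 65.9 and 62.5 CPM in TNF with ferrostatin-1 and 79.9 and 68.7 CPM in TNF alone, against 70.6 and 72.0 CPM in liproxstatin-1, 59.6 and 63.4 CPM in ferrostatin-1 and 62.0, 56.9 and 65.8 CPM in control. Both TNF libraries were above every control library, both libraries of TNF with liproxstatin-1 were below both of liproxstatin-1 alone, and with ferrostatin-1 the groups overlapped. None of these 3 contrasts passed: the log2 fold change was 0.27 (95% interval 0.06 to 0.48) in TNF against control, 0.04 (-0.17 to 0.25) within ferrostatin-1 and -0.25 (-0.48 to -0.02) within liproxstatin-1. The mean of the 3 was 0.02 (-0.10 to 0.15). Without TNF library 3, CASP8 was called higher in TNF against control (0.38, adjusted p = 0.00572), where 31.2% of all genes were called, and without either TNF library it was called lower within liproxstatin-1 (-0.25, adjusted p = 0.0376 and 0.0379), where 23.1% were.

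CASP10, the second death receptor initiator (ENSG00000003400, chromosome 2, 201182898 to 201221665, plus strand), had 21.5 and 20.5 CPM in TNF with liproxstatin-1, 17.9, 18.0 and 19.2 CPM in TNF with ferrostatin-1 and 22.1 and 22.9 CPM in TNF alone, against 15.7 and 13.4 CPM in liproxstatin-1, 12.2 and 14.3 CPM in ferrostatin-1 and 15.3, 15.6 and 13.6 CPM in control. As for CFLAR, every TNF-treated library exceeded every other. CASP10 rose by 0.60 ± 0.12 on the log2 scale (SE) in TNF against control (adjusted p = 0.00629), by 0.47 ± 0.12 within ferrostatin-1 (adjusted p = 0.0185) and by 0.53 ± 0.13 within liproxstatin-1 (adjusted p = 0.0186). Within ferrostatin-1 the call was lost without ferrostatin-1 library 1 or without library 3 of TNF with ferrostatin-1 (adjusted p up to 0.208). Within liproxstatin-1 it was lost without liproxstatin-1 library 3 or either library of TNF with liproxstatin-1 (adjusted p up to 0.174).

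CASP9, the initiator of the mitochondrial route (ENSG00000132906, chromosome 1, 15490832 to 15524889, minus strand), was not called in any TNF contrast with all libraries. Its levels were 12.6 and 13.5 CPM in TNF with liproxstatin-1, 13.8, 14.4 and 11.9 CPM in TNF with ferrostatin-1 and 20.6 and 16.1 CPM in TNF alone, against 17.5 and 14.9 CPM in liproxstatin-1, 14.9 and 14.6 CPM in ferrostatin-1 and 14.9, 14.7 and 13.8 CPM in control. The TNF libraries were both above all controls, while with either inhibitor the TNF-treated libraries were all below those without TNF. The log2 fold change was 0.34 (95% interval 0.04 to 0.64) in TNF against control, -0.14 (-0.44 to 0.16) within ferrostatin-1 and -0.32 (-0.65 to 0.02) within liproxstatin-1. Without TNF library 3, the value against control was 0.51 and was called (adjusted p = 0.0147).

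CASP2, the PIDDosome initiator (ENSG00000106144, chromosome 7, 143288215 to 143307696, plus strand), had 81.1 and 89.4 CPM in TNF with liproxstatin-1, 78.3, 80.8 and 81.1 CPM in TNF with ferrostatin-1 and 88.4 and 93.4 CPM in TNF alone, against 75.7 and 74.3 CPM in liproxstatin-1, 66.0 and 66.2 CPM in ferrostatin-1 and 91.6, 93.8 and 84.4 CPM in control. The 4 lowest libraries were those with an inhibitor and no TNF. With TNF, CASP2 was 0.28 ± 0.08 higher on the log2 scale (SE) within ferrostatin-1 (adjusted p = 0.0391) and did not pass within liproxstatin-1 (0.19, 95% interval -0.01 to 0.38) or against control (0.02, -0.17 to 0.20). In the mean of the 3 contrasts the change was 0.16 ± 0.05 (adjusted p = 0.0267). Both calls were close to the threshold and were lost without any of several libraries, with adjusted p up to 0.195 within ferrostatin-1 and 0.114 for the mean.

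CASP6, the executioner among the members (ENSG00000138794, chromosome 4, 109688622 to 109703583, minus strand), had 29.8 and 29.3 CPM in TNF with liproxstatin-1, 26.8, 27.3 and 22.4 CPM in TNF with ferrostatin-1 and 42.2 and 30.7 CPM in TNF alone, against 20.1 and 19.8 CPM in liproxstatin-1, 18.4 and 14.7 CPM in ferrostatin-1 and 22.6, 23.4 and 20.7 CPM in control. Within each contrast the TNF-treated libraries were all higher, although library 3 of TNF with ferrostatin-1 lay within the control range. CASP6 rose by 0.71 ± 0.15 on the log2 scale (SE) in TNF against control (adjusted p = 0.00874), by 0.62 ± 0.15 within ferrostatin-1 (adjusted p = 0.0150) and by 0.57 ± 0.17 within liproxstatin-1 (adjusted p = 0.0395). Without TNF library 1, the higher of the pair, the first value was 0.47 and no longer passed (adjusted p = 0.0585). Without ferrostatin-1 library 3 the second no longer passed (adjusted p = 0.170), and the third was lost without any of 7 libraries.

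Of the inflammatory pair, CASP1 changed most among the 8 members and CASP4 went the other way in the mean of the contrasts. CASP1 (ENSG00000137752, chromosome 11, 105025443 to 105035250, minus strand) had 24.2 and 21.7 CPM in TNF with liproxstatin-1, 19.95, 21.9 and 15.8 CPM in TNF with ferrostatin-1 and 8.14 and 15.5 CPM in TNF alone, against 7.91 and 7.91 CPM in liproxstatin-1, 4.67 and 5.40 CPM in ferrostatin-1 and 4.83, 2.46 and 4.74 CPM in control. The gap between the 2 sides was narrow: TNF library 1, at 8.14 CPM, was just above the liproxstatin-1 libraries. CASP1 rose by 1.56 ± 0.30 on the log2 scale (SE) in TNF against control (adjusted p = 0.00513, a fold of 2.95), by 1.93 ± 0.32 within ferrostatin-1 (adjusted p = 0.00155) and by 1.54 ± 0.33 within liproxstatin-1 (adjusted p = 0.00976). Against control the value was 1.02 without TNF library 3 and 1.96 without TNF library 1, both called. Within liproxstatin-1 the call was lost without either liproxstatin-1 library or without library 1 of TNF with liproxstatin-1 (adjusted p up to 0.0736). CARD16, a CASP1 paralog next to it that shares much of its sequence, was counted 4 to 41 times a library, and both values are uncertain where reads were split between them.

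CASP4, which binds bacterial lipopolysaccharide (ENSG00000196954, chromosome 11, 104942866 to 104969366, minus strand), had 84.1 and 82.4 CPM in TNF with liproxstatin-1, 79.3, 87.9 and 82.6 CPM in TNF with ferrostatin-1 and 51.7 and 74.4 CPM in TNF alone, against 101 and 100.3 CPM in liproxstatin-1, 90.1 and 88.2 CPM in ferrostatin-1 and 88.4, 72.7 and 88.5 CPM in control. TNF library 1 was the lowest of the 14, and the liproxstatin-1 libraries were the highest. In the mean of the 3 contrasts CASP4 fell by 0.26 on the log2 scale (SE 0.08, adjusted p = 0.0300), and no single contrast passed (-0.40 in TNF against control, -0.10 within ferrostatin-1, -0.27 within liproxstatin-1). The call for the mean was lost without any of 10 libraries (adjusted p up to 0.0721). Without TNF library 3, CASP4 was called lower in TNF against control (log2 fold change -0.69, adjusted p = 4.35e-04), and without TNF library 1 the value was -0.16 (adjusted p = 0.464). It was also called there without control library 2 (-0.50, adjusted p = 0.0349).

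Taking all TNF-treated libraries against all others, the ranges of CASP1, CASP10 and CFLAR, 3 of 8 members, did not overlap and were higher with TNF. Of all genes tested, 9.6% had ranges that did not overlap (5.33% higher and 4.27% lower with TNF). The calls for CASP1, CASP6, CASP10 and CFLAR in the mean of the 3 contrasts passed in every fit that left out a library, as under every other alternative run, with adjusted p of 2.84e-05, 2.18e-04, 1.37e-04 and 1.15e-04 in edgeR's test of all libraries. In TNF against control, however, none of the 4 calls passed when only these 2 groups were fitted or with limma voom and quality weights, although the log2 fold changes stayed between 0.34 and 1.55.

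**Figure D3:**
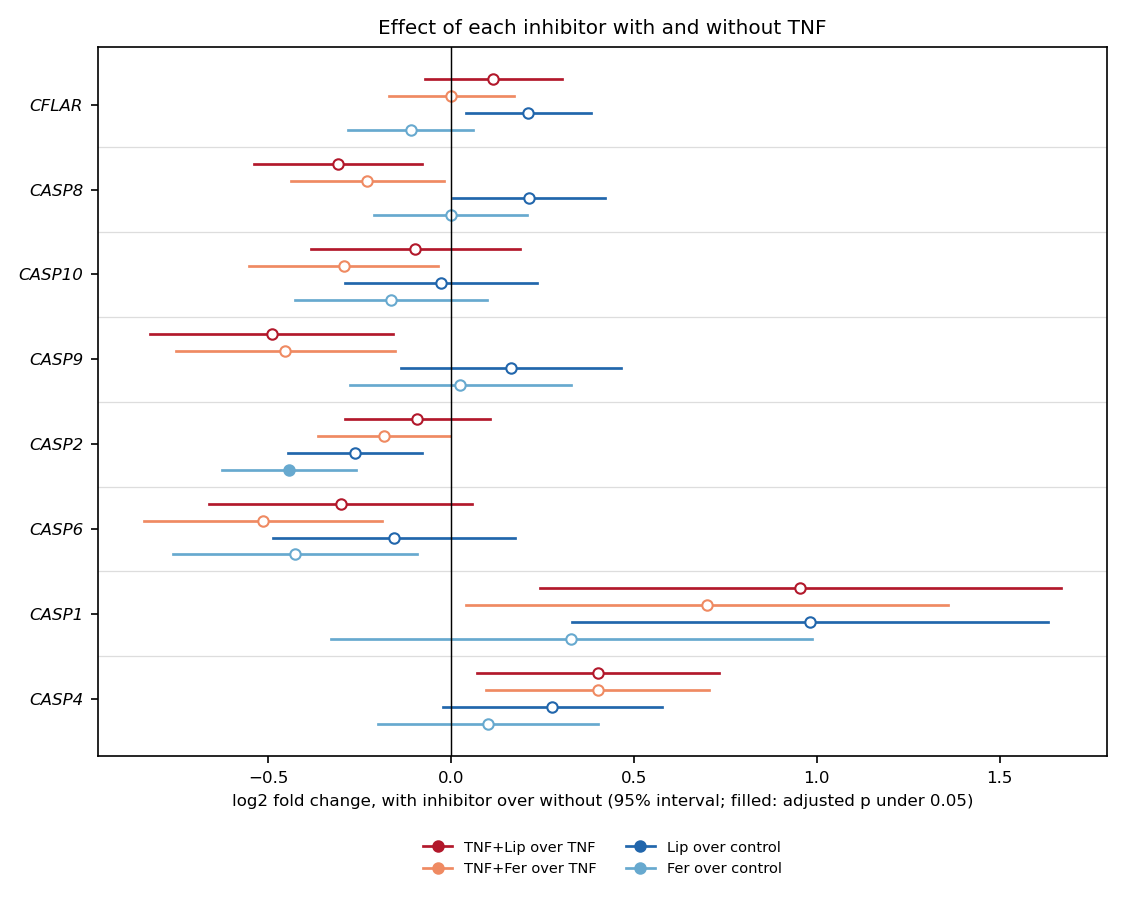
Log2 fold change with an inhibitor over without it (x axis) for each member, with 95% intervals, for liproxstatin-1 (Lip) and ferrostatin-1 (Fer), each with and without TNF. The filled point, CASP2 under ferrostatin-1 alone, is the one value that passed an adjusted p of 0.05.

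Ferrostatin-1 alone was compared with control to see its effect on cells without TNF, and CASP2 was the 1 member called: it fell to 66.1 ± 0.164 CPM in ferrostatin-1 (SD, n = 2), against 89.9 ± 4.92 CPM in control (SD, n = 3). This is a log2 fold change of -0.44 ± 0.08 (SE, adjusted p = 0.0429), where 0.564% of all genes were called (0.379% lower). The call is close to the threshold, and it was lost in 11 of the 14 fits that left out 1 library (adjusted p up to 0.296), although the value stayed between -0.49 and -0.42. CASP6 had the next lowest level relative to control, at 16.5 ± 2.58 CPM in ferrostatin-1 and 22.2 ± 1.42 CPM in control, but did not pass (log2 fold change -0.43, 95% interval -0.76 to -0.09, adjusted p = 0.266). The other 6 members lay between -0.16 and 0.33.

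With liproxstatin-1 alone no member was called by edgeR against control, where 0.0586% of all genes were. At an unadjusted p under 0.05 there were 4 of the 8 members and 12% of all genes. These 4 were CASP1, CASP2, CASP8 and CFLAR. CASP1 averaged 7.91 ± 0.000318 CPM in liproxstatin-1 and 4.01 ± 1.35 CPM in control, a log2 fold change of 0.98 (95% interval 0.33 to 1.63, adjusted p = 0.222). CASP2 stood at 75.0 ± 0.959 CPM in liproxstatin-1 and 89.9 ± 4.92 CPM in control (log2 fold change -0.26, -0.44 to -0.08). CFLAR stood at 78.5 ± 1.29 CPM in liproxstatin-1 and 67.9 ± 2.90 CPM in control (0.21, 0.04 to 0.38). CASP8 had 70.6 and 72.0 CPM in liproxstatin-1 and 56.9 to 65.8 CPM in control (0.21, 0.00 to 0.42). The groups did not overlap in these 4 genes, nor in CASP4 and CASP6, whose p was above 0.05. How many of all genes were parted in this way between these small groups was not counted, so no result about the members is read from it. With limma voom and quality weights CASP1, CASP2 and CFLAR were called (3 of 8), where 6.6% of all genes were, and with DESeq2 no member was, where 2.45% were.

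The inhibitors were added to TNF to see whether either changes what TNF does. No member was called by edgeR for either of them: where ferrostatin-1 was added to TNF 5.52% of all genes were called, and where liproxstatin-1 was added 0.343%. At an unadjusted p under 0.05 there were 7 members and 28.2% of all genes for ferrostatin-1, and 4 members and 23.1% of all genes for liproxstatin-1. DESeq2 called 3 members in each, CASP4, CASP6 and CASP9 for ferrostatin-1 and CASP1, CASP8 and CASP9 for liproxstatin-1, where it called 27.3% and 18.1% of the genes to which it gave an adjusted p.

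CASP9 stood lower in each library with an inhibitor, at 12.6 and 13.5 CPM in TNF with liproxstatin-1 and 13.4 ± 1.34 CPM in TNF with ferrostatin-1 (SD, n = 3), against 18.3 ± 3.20 CPM in TNF alone (SD, n = 2). The log2 fold changes were -0.49 (95% interval -0.82 to -0.16, adjusted p = 0.107) for liproxstatin-1 and -0.45 (-0.75 to -0.15, adjusted p = 0.0683) for ferrostatin-1. CASP6 averaged 29.6 ± 0.392 CPM in TNF with liproxstatin-1 and 25.5 ± 2.71 CPM in TNF with ferrostatin-1, against 36.4 ± 8.09 CPM in TNF alone. CASP4, in contrast, stood at 84.1 and 82.4 CPM in TNF with liproxstatin-1 and at 83.3 ± 4.35 CPM in TNF with ferrostatin-1 (SD, n = 3), against 63.1 ± 16.0 CPM in TNF alone (log2 fold changes 0.40, 0.07 to 0.73, and 0.40, 0.10 to 0.71). CASP1 stood at 23.0 ± 1.76 CPM in TNF with liproxstatin-1 and 19.2 ± 3.09 CPM in TNF with ferrostatin-1, against 11.8 ± 5.24 CPM in TNF alone.

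These contrasts hang on which TNF library is kept. Without TNF library 3, CASP1, CASP4, CASP6, CASP8 and CASP9 were called for both inhibitors, CASP1 and CASP4 higher and the others lower. In the same fit 28.7% of all genes were called for liproxstatin-1 and 31.2% for ferrostatin-1. For liproxstatin-1 the log2 fold changes were then 1.50 for CASP1, 0.69 for CASP4, -0.51 for CASP6, -0.41 for CASP8 and -0.66 for CASP9. Without TNF library 1 none was called, with 0.56 for CASP1, 0.16 for CASP4, -0.06 for CASP6, -0.20 for CASP8 and -0.30 for CASP9. For ferrostatin-1 the values without TNF library 3 were 1.24 for CASP1, 0.69 for CASP4, -0.73 for CASP6, -0.33 for CASP8 and -0.62 for CASP9. Without TNF library 1 they were 0.30, 0.16, -0.27, -0.12 and -0.27 in the same order of genes, and none was called. In such a fit the lone TNF library is assumed to vary like the libraries of the other groups. For CFLAR, TNF with ferrostatin-1 over TNF alone gave a log2 fold change of 0.00 (95% interval -0.17 to 0.17), and for CASP10, TNF with liproxstatin-1 over TNF gave -0.10 (-0.38 to 0.19).

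Whether the TNF response itself differed with an inhibitor was tested by interaction terms, in which no member was called by edgeR. For ferrostatin-1, 0.00451% of all genes were called and 2 members, CASP2 and CASP9, had an unadjusted p under 0.05, as 19.1% of all genes did. Without TNF library 3, CASP4 (0.59), CASP8 (-0.33) and CASP9 (-0.65) were called there, where 26% of all genes were. With all libraries DESeq2 called no member, where 9.23% of genes were called. For liproxstatin-1, 0% of genes were called, and the 2 members with an unadjusted p under 0.05 were CASP8 (-0.52, 95% interval -0.83 to -0.21, adjusted p = 0.136) and CASP9 (-0.66, -1.10 to -0.21, adjusted p = 0.157), where 19.5% of all genes had one. DESeq2 called these 2, where 9.31% of genes were called, and so did edgeR without TNF library 3 (-0.63 and -0.82), where 26% were. Without TNF library 1 they were -0.41 and -0.47 and not called.

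Liproxstatin-1 and ferrostatin-1, given at the same dose and time, were also set against each other. Without TNF no member was called by edgeR (0.104% of all genes were). All 8 had a positive log2 fold change of liproxstatin-1 over ferrostatin-1, from 0.14 to 0.65. The share of all genes with a positive value was not counted, and the 8 values come from the same libraries. No result about the members is therefore read from their shared sign. CFLAR was the 1 member with an unadjusted p under 0.05, at 78.5 ± 1.29 CPM in liproxstatin-1 and 62.8 ± 2.85 CPM in ferrostatin-1 (log2 fold change 0.32, 95% interval 0.13 to 0.51, adjusted p = 0.302), and DESeq2 and limma voom each called CFLAR, where they called 1.08% and 1.36% of genes. The median of the 8 was 0.20, against -0.01 over all genes. In TNF-treated cells no member was called (0.766% of all genes were) or had an unadjusted p under 0.05. The intervals there reached from -0.39 to 0.90 for CASP1, from -0.06 to 0.29 for CFLAR and from -0.29 to 0.13 for CASP8, so differences of these sizes were not resolved. No member was called in the test of whether the 2 compounds changed the TNF response unequally, in which 0% of all genes were called by edgeR, 0 members had an unadjusted p under 0.05 and DESeq2 called 0 members.

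**Figure D4:**
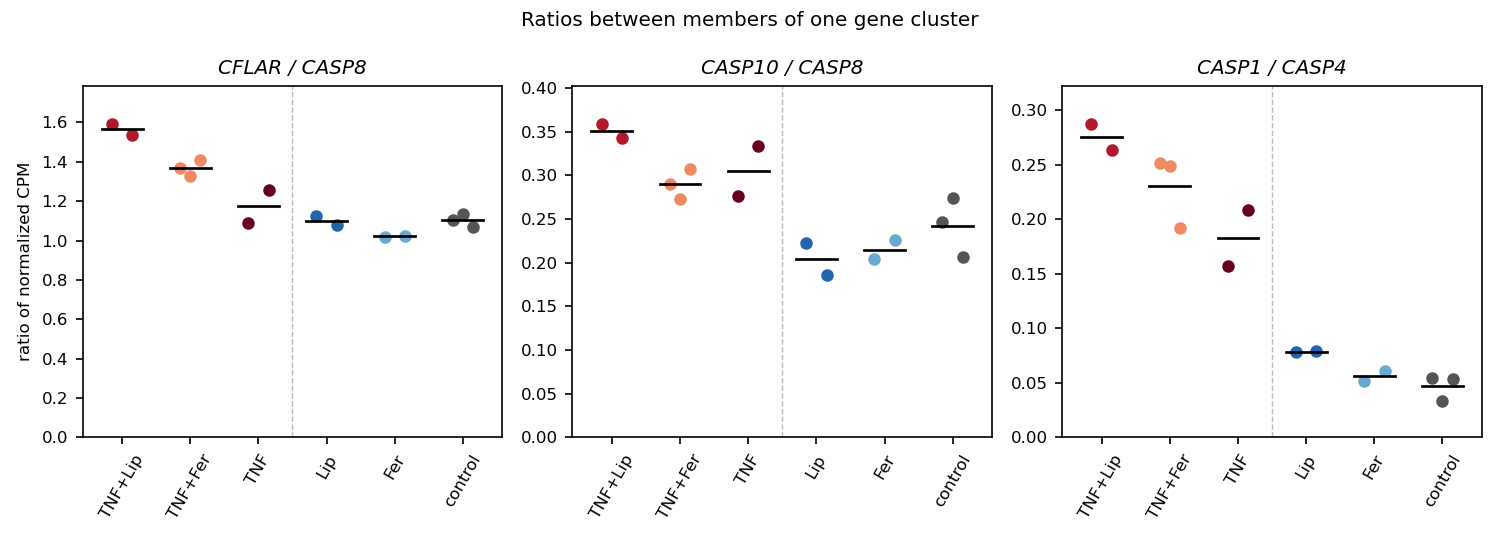
Ratio of normalized CPM of CFLAR to CASP8, CASP10 to CASP8 and CASP1 to CASP4 (y axes, starting at 0) in each library (points) with group means (bars), for the 6 groups on the x axis. CPM is not per length, so the ratios are compared between libraries only, and the CFLAR to CASP8 ratio is highest in the 2 libraries of TNF with liproxstatin-1.

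Because CFLAR and CASP8 meet in 1 complex, the ratio of their CPM was taken in each library. It averaged 1.57 ± 0.0403 in TNF with liproxstatin-1 (SD, n = 2), 1.37 ± 0.0405 in TNF with ferrostatin-1 (SD, n = 3) and 1.17 ± 0.118 in TNF alone (SD, n = 2), against 1.10 ± 0.0337 in liproxstatin-1, 1.02 ± 0.00189 in ferrostatin-1 and 1.10 ± 0.0342 in control. TNF library 1, at 1.09, was inside the control range of 1.07 to 1.14, and TNF library 3 was above it at 1.26. All 5 libraries of TNF with an inhibitor were above all others. The ratio is a description of these libraries and was not tested. On the log2 scale it was 0.51 higher in TNF with liproxstatin-1 than in liproxstatin-1, 0.42 higher in TNF with ferrostatin-1 than in ferrostatin-1, and 0.08 higher in TNF than in control.

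**Figure D5:**
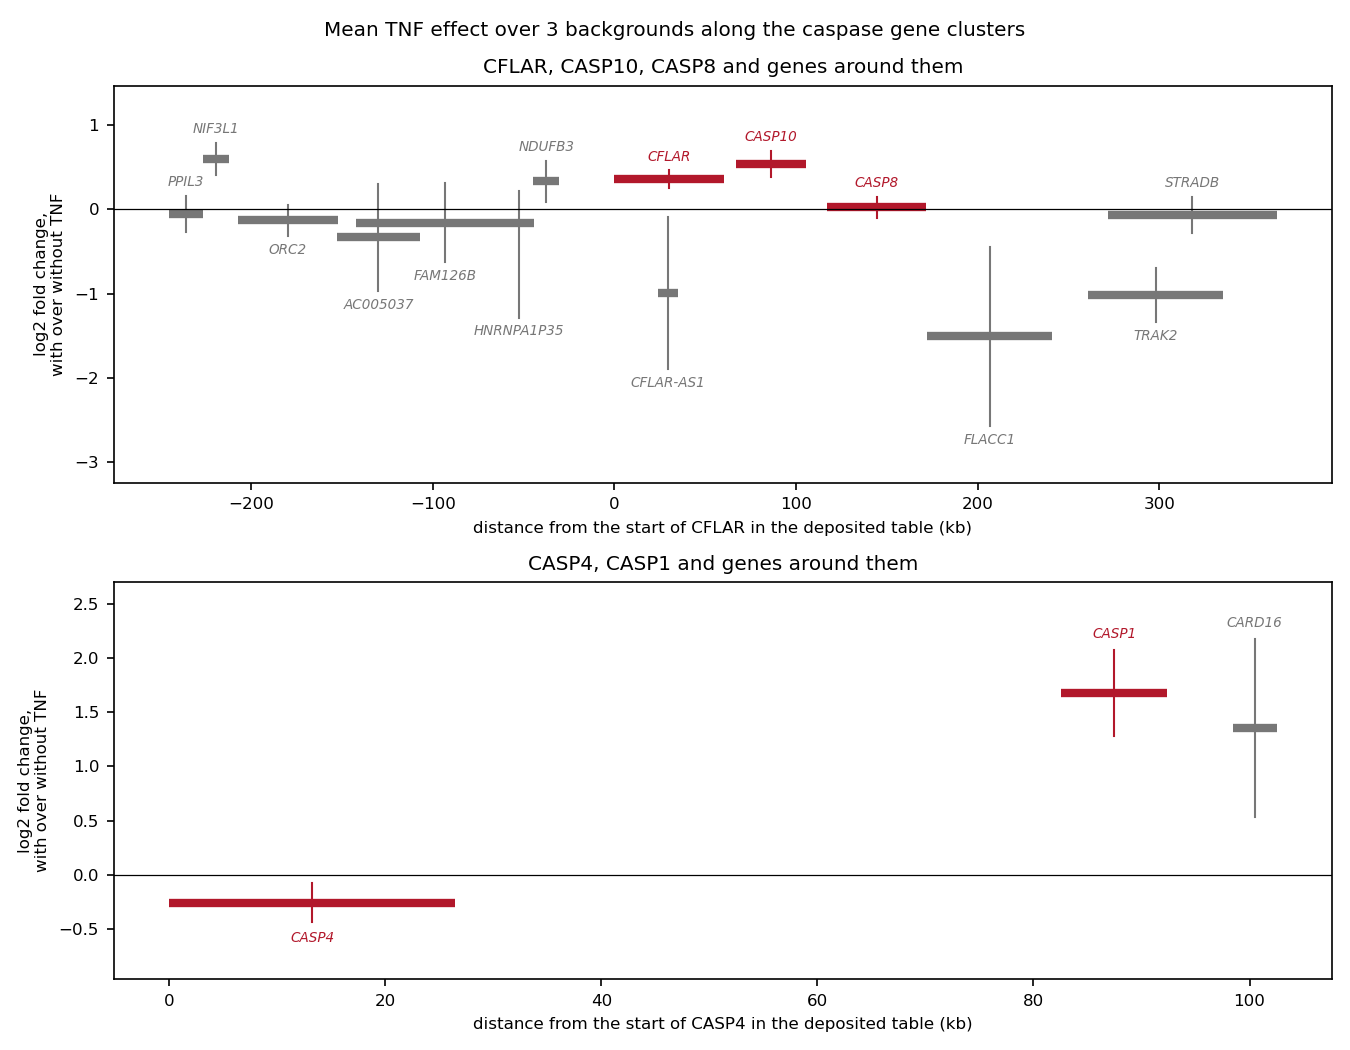
Log2 fold change with over without TNF (y axis, mean of the 3 contrasts, vertical lines 95% intervals) of the genes tested around CFLAR, CASP10 and CASP8 and around CASP4 and CASP1, each drawn over its extent as distance from the first gene (x axis, kb). Members are red and other genes grey. CASP8 sits at 0 between CASP10, which is above 0, and FLACC1, which is below on 68 counts at most.

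Members lie in 2 clusters in the genome. CFLAR, CASP10 and CASP8 span 171.6 kb of chromosome 2. Of 25 other genes within 250000 bases of them, 11 were tested, and in the mean of the 3 TNF contrasts 2 were called higher, 2 lower and 7 were not called, a share near the 33.9% of all genes called. NIF3L1 was higher by 0.60 ± 0.09 and the respiratory chain subunit NDUFB3 by 0.33 ± 0.11 on the log2 scale (SE). TRAK2, a mitochondrial transport adaptor, fell by 1.02 (SE 0.15), and FLACC1 fell by 1.51 (SE 0.49), on 68 counts at most. CASP4 and CASP1 span 92.4 kb of chromosome 11, with CASP5 between them at 0 counts. CARD16, the only other gene tested there, was higher by 1.36 ± 0.37 (adjusted p = 0.0151), on 41 counts at most.

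Genes whose pattern over the 14 libraries was most like that of a member were ranked by Pearson's r of log2 CPM among 14891 other genes with a mean count of at least 50. The libraries share 6 treatments, so these values are a description. Next to CASP1 stood the interferon-induced genes IFIT3 (r = 0.990), IFIH1 (0.978) and SP100 (0.977), and next to CFLAR stood IFIT1 (0.955), NLRC5 (0.955) and CD22 (0.953). CASP4 was most like the guanylate-binding protein gene GBP3 (0.982), then COA7 (0.971) and PBDC1 (0.967). CASP8 was most like JOSD1 (0.952), JUNB (0.933) and OGFR (0.930), and CASP10 most like MCF2L (0.968), FAM43A (0.965) and IL34 (0.963). CASP9 was nearest to SHARPIN (0.931), a subunit of the linear ubiquitin ligase, CASP2 to TCF19 (0.968) and CASP6 to the lysosomal enzyme gene HEXA (0.972). Among the members, CASP1 and CFLAR were most alike (r = 0.90), followed by CASP10 and CFLAR (0.84) and CASP6 and CASP10 (0.84), while CASP4 and CASP6 ran opposite (-0.75).

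The partners of the caspases were read from lists of genes by role, in the mean of the 3 TNF contrasts. In that mean 33.9% of all genes were called (17.6% higher and 16.2% lower). Of 15 genes of the death receptor complex 6 rose, 2 fell and 7 were not called, with a median log2 fold change of 0.13 against 0.01 over all genes. The death ligand TNFSF10 rose by 1.88 ± 0.11 (SE), and by 1.75 ± 0.18 in TNF against control (30.8 and 46.3 CPM in TNF alone, 11.5 ± 0.312 CPM in control). The adaptor TRAF2 rose by 0.69 ± 0.06 and the deubiquitinase CYLD by 0.91 ± 0.12. The TNF receptor gene TNFRSF1A fell by 0.61 (SE 0.09), whereas in TNF against control alone none of the list fell.

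Of 11 genes of the mitochondrial route 2 rose, 1 fell and 8 were not called (median 0.04), where 33.9% of all genes were called. BID, which carries the signal of CASP8 to mitochondria once cleaved, rose by 0.93 ± 0.07 on the log2 scale in the mean of the contrasts. In TNF against control BID rose by 1.17 ± 0.12, to 116 ± 22.8 CPM in TNF against 51.8 ± 4.39 CPM in control. It rose by 0.90 within ferrostatin-1 and by 0.72 within liproxstatin-1. In the mean, BCL2L11 rose by 0.35 ± 0.06, and CYCS, the cytochrome c that assembles the apoptosome, fell by 0.47 (SE 0.10). Of 2 PIDDosome genes 1 rose, PIDD1 by 0.46 ± 0.09 (0.17 and not called in TNF against control), and the other was not called.

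Among 7 inhibitor of apoptosis genes 2 rose, 2 fell and 3 were not called (median -0.17), where 33.9% of all genes were called. BIRC3 rose by 3.79 ± 0.31 and BIRC5 by 0.79 ± 0.12, while BIRC7 fell by 0.64 and BIRC6 fell by 0.75. For BIRC6 the contrasts were uneven, at -1.79 in TNF against control, which was called, and -0.40 within ferrostatin-1 and -0.08 within liproxstatin-1, which were not. BIRC6, a large ubiquitin ligase that binds caspases, was the 1 gene of the list called when either inhibitor was added to TNF. In those contrasts 0.343% of all genes were called for liproxstatin-1 and 5.52% for ferrostatin-1. BIRC6 stood at 186 ± 0.677 CPM in TNF with liproxstatin-1 and 161 ± 22.6 CPM in TNF with ferrostatin-1, against 44.6 ± 31.3 CPM in TNF alone, with 22.5 CPM in one TNF library and 66.7 CPM in the other. The log2 fold changes were 2.06 ± 0.37 (adjusted p = 0.0443) and 1.86 ± 0.35 (adjusted p = 0.0200), and the interactions with TNF did not pass (adjusted p = 0.141 and 0.168).

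Of 19 inflammasome and pyroptosis genes 18 are in the table and 15 were tested: 7 rose, 1 fell and 7 were not called (median 0.33, also with MEFV set to its bound). Over all genes 33.9% were called. The adaptor PYCARD rose by 1.06 ± 0.11, IFI16 by 1.32 ± 0.19 and GSDMB by 0.68 ± 0.07. MEFV, the pyrin gene, had 24 and 49 counts in TNF libraries and 0 in all control libraries, at least 35.2-fold higher against a floor of 3 counts over the control group. The inflammasome sensor NLRP3 fell by 2.12 (SE 0.42), on 172 counts at most, and of the 3 contrasts was called within ferrostatin-1 alone. IL1B did not pass in the mean of the contrasts (-0.07), which were 0.68 in TNF against control, not called, and -0.78 within ferrostatin-1, called (adjusted p = 0.0388). When ferrostatin-1 was added to TNF, IL1B fell by 0.91 (adjusted p = 0.0453) and GSDMD fell by 0.48 (adjusted p = 0.0435), where 5.52% of all genes were called. Both calls are close to the threshold, in a contrast whose calls over all genes shifted with the library left out.

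Of 11 genes of proteins that caspases cleave 2 rose, 4 fell and 5 were not called (median 0.10), where 33.9% of all genes were called. PARP1 rose by 0.38 ± 0.05 and the lamin LMNB1 by 0.78 ± 0.12, and SPTAN1 fell by 0.49 and PAK2 fell by 0.33. In TNF against control neither PARP1 (0.15, adjusted p = 0.279) nor LMNB1 (-0.01, adjusted p = 0.990) was called. LMNB1 rose by 1.20 within ferrostatin-1 and 1.15 within liproxstatin-1, and against control it stood at -0.99 in ferrostatin-1 and -0.86 in liproxstatin-1, not called. Of 5 genes of the switch to necroptosis 3 rose and none fell (median 0.37): ZBP1 by 2.83 ± 0.26, MLKL by 0.38 ± 0.06 and TICAM1 by 0.37 ± 0.10. TICAM1 was called in TNF against control (0.79) and not within ferrostatin-1 (0.30) or liproxstatin-1 (0.01). The TNF contrasts and the inhibitor contrasts share control and TNF libraries, so their values are not independent of each other.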

How the data were processed

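HT-29 poly(A) RNA was sequenced as paired ends from dUTP libraries, per the labels' protocols. The authors deposited whole-number counts per gene for 14 libraries, and FPKM values per gene. The submitters' processing notes name cutadapt 1.9, HISAT2 2.0.4, StringTie 1.3.4d, DESeq2 and edgeR without roles; the counter, strand setting and genome build are not stated there. Of the 8 member IDs, all occur in GENCODE v29, 4 of them at the same coordinates.

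Groups came from sample labels. In 3 groups (ferrostatin-1, liproxstatin-1, TNF) the columns carry numbers 1 and 3 but the titles 1 and 2, so columns were matched to the group, and library numbers in the text are column numbers. FPKM was used for levels between genes in control cells only, and 6 FPKM columns of these groups were not used. The design text speaks of 3 technical replicates, while 4 groups have 2 libraries here, for reasons not known.

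Deposited counts were scaled by TMM and tested with edgeR 4.0.16 (R 4.3.3) by quasi-likelihood in 1 model of all 6 groups, after filterByExpr. Adjusted p is Benjamini-Hochberg over 22179 genes, with a threshold of 0.05. A standard error is the log2 fold change divided by the square root of F, and intervals are 95% t intervals. The script was tested on simulated counts. Libraries of 1 group all differed by more than counting noise.

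Genes named are the members, called list genes (at most 4 per list and contrast by p), the 3 most alike genes per member, and tested neighbours. Members and lists were chosen with earlier results of these data known. Alternatives were another scaling, no low-count filter, DESeq2 1.42.0, voom with quality weights (limma 3.58.1), a replicate block, only the groups compared, and each library left out.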

Additional observations from a re-analysis of the deposited data

How the results depend on the processing

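Of 616 values of the members under other settings 572 stayed on their side of the threshold, 20 lost their call and 24 gained one, and of 1456 with a library left out 1378 stayed, 55 lost and 23 gained it. Among those that stayed, 9 and 38 uncalled values changed sign. No called value changed direction. The number of members called moved as follows. With limma voom it was 0 in TNF against control, 7 for TNF within liproxstatin-1, 2 for ferrostatin-1 against control, 3 for liproxstatin-1 against control and 1 for liproxstatin-1 against ferrostatin-1 without TNF. With only the compared groups it was 0 in TNF against control, 6 for TNF within liproxstatin-1 and 0 for ferrostatin-1 against control. DESeq2 called 3 when ferrostatin-1 and 3 when liproxstatin-1 was added to TNF, 1 for liproxstatin-1 against ferrostatin-1 without TNF and 2 for the interaction of liproxstatin-1 and TNF. With no filter it was 0 for ferrostatin-1 against control. The cause was not tested.

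No pairing of libraries by replicate number was seen (r of deviations in 28 same-numbered pairs from -0.088 to 0.118). Where a group has only a pair of libraries, their deviations mirror each other, so these r values are not independent. In some groups the column numbers also differ from those in the titles. The values therefore cannot show that pairing is absent. With the replicate number as a block 3 members were called for TNF within ferrostatin-1, 1 for TNF within liproxstatin-1 and 0 for ferrostatin-1 against control.

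With each library left out in turn, members called ran from 3 to 7 in TNF against control, 3 to 5 for TNF within ferrostatin-1, 0 to 5 for TNF within liproxstatin-1, 4 to 6 in the mean of the 3, 0 to 1 for ferrostatin-1 against control, 0 to 0 for liproxstatin-1 against control, 0 to 5 when either inhibitor was added to TNF, 0 to 0 between the inhibitors with or without TNF, 0 to 3 and 0 to 2 for the interactions of ferrostatin-1 and of liproxstatin-1, and 0 to 0 for their difference. A group left with 1 library is assumed to vary like the others. The mean of the 3 TNF contrasts has no fit with compared groups only, and the CFLAR to CASP8 ratio was not run in FPKM. Over all genes, calls in TNF against control numbered 3255 in the edgeR fit, 4899 with DESeq2, 1514 with voom, 397 with the compared groups only and 1766 to 7380 with a library left out. Within ferrostatin-1 they numbered 4019, against 7240 with voom, 6937 with the compared groups only and 1877 to 6276 with a library left out, and within liproxstatin-1 3240, against 6848, 5943 and 1328 to 5473, with 1781 under the block. When ferrostatin-1 was added to TNF they numbered 1224, against 3933 with DESeq2, 14 with voom, 537 with no filter, 294 under the block, 11 with the compared groups only and 69 to 7373 with a library left out, and for liproxstatin-1 76, against 2458, 123, 62, 19, 0 and 4 to 6797. Ferrostatin-1 against control gave 125, against 797 with DESeq2, 1604 with voom, 22 under the block and 13 with the compared groups only, and liproxstatin-1 against control 13, against 512, 1463, 3 and 3. The interactions gave 1 for ferrostatin-1 and 0 for liproxstatin-1, against 1331 and 1303 with DESeq2 and up to 6147 with a library left out.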
